A study of Mus musculus with 45 samples.

Results

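The 9 genes described here encode sensors, an adaptor, proteases, a kinase and an executioner of inflammatory cell death: Casp1, Casp4, Casp8, Zbp1, Ripk3, Mlkl, Aim2, Nlrp3 and Pycard. They were taken by symbol, as a fixed list, from 50600 gene identifiers in the count and TPM tables of mouse distal colon. The list was chosen with earlier results of these data known. Each symbol matched exactly 1 identifier, and all 9 passed the expression filter in every comparison. RNA sequencing of poly(A)-selected RNA gave 45 libraries, of which 44 could be placed in 6 groups. In the first cohort these were 8 libraries of untreated wild-type (WT) colon, 10 of Il10 knockout colon given vehicle, 9 of knockout colon given compound 13 at 30 mg/kg and 7 given it at 10 mg/kg. The second cohort, sampled at day 77 per the labels, was Il10 knockout throughout, with 5 libraries after vehicle and 5 after an anti-p40 antibody. All groups but wild type carry the Il10 deletion. Compound 13 is known from the study as an antagonist of GPR4, a proton-sensing receptor, and p40 is the subunit shared by the cytokines IL-12 and IL-23. The labels give no age, sex, cage, dosing schedule or batch, and whether each library is its own animal is not stated, so the p-values here reflect the spread between libraries only, which may be technical.

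An inflammasome forms when a sensor such as NLRP3 or AIM2 recruits the adaptor ASC, encoded by Pycard, which activates caspase-1 to cleave interleukin-1β, interleukin-18 and the pore protein gasdermin D. Caspase-4 of the mouse, also called caspase-11, is activated directly by bacterial lipopolysaccharide inside the cell. In necroptosis the kinase RIPK3, recruited by ZBP1 or by death receptor complexes, phosphorylates MLKL, which then breaks the plasma membrane, and caspase-8 restrains this route. In the intestine these pathways act both in epithelial cells and in immune cells, and mice without interleukin 10 are known to develop colitis.

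Casp1 and Casp4 are neighbours on chromosome 9 (GRCm38), both on the plus strand, with 1562 bases between the genes and 10311 bases between their starts. Casp1 lies at chr9:5298517-5307265 and Casp4 at chr9:5308828-5336783. The 250 bases before a RefSeq start (GRCm38.p6) are shown for these 2 neighbours and for Ripk3, whose gene lies at chr14:55784995-55788865 on the minus strand. The windows are chr9:5298267-5298516 for Casp1, chr9:5308599-5308848 for Casp4 and chr14:55788858-55789107 for Ripk3, each 5′ to 3′ on the strand of the gene.
Casp1: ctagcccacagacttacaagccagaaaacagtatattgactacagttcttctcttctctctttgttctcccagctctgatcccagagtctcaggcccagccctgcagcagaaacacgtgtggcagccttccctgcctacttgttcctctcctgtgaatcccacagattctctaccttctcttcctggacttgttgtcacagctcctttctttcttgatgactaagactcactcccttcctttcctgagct
Casp4: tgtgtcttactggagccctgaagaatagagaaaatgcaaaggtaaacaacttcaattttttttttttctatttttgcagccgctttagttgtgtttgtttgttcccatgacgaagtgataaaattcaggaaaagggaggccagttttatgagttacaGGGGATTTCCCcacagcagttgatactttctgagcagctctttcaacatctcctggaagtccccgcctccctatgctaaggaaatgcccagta
Ripk3: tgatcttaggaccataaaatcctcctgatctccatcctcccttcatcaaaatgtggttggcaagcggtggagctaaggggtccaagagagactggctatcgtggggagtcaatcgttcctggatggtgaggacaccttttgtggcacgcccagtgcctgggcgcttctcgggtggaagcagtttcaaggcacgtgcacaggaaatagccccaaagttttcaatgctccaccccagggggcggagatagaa
They are shown because the 3 genes rose in the knockout by different amounts and varied together between libraries, as described later. RefSeq windows were found for 8 of the 9 genes. The motif of interferon-γ activated sites (GAS, TTCNNNGAA), the interferon-stimulated response element (ISRE, GAAANNGAAA) and a narrow κB pattern (GGGANNTTCC) were searched on both strands, the last of them added after the first 2 gave no match. None of the 8 genes held any of these 3 patterns, which says only that these letters are not in these windows. The usual, wider NF-κB consensus was added later, after the Casp4 sequence had been seen. It matched in the windows of 2 of the 8 genes, Casp4 and Nlrp3. In the Casp4 window shown, 2 overlapping matches, in capitals, span the bases from 93 to 83 before that RefSeq start. Over all RefSeq windows of the same length, 7.02% held the GAS motif, 2.98% the ISRE, 1.21% the narrow κB pattern and 3.9% the wider consensus. Counted by gene, with a match in any of its windows, these shares were 8.13%, 3.46%, 1.36% and 4.46%. A match is a description of the letters only.

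Library totals ranged from 22682491 to 36279774 estimated counts. Il10 itself had 10 counts over the 8 wild-type libraries and 0 in all 36 grouped knockout libraries. None of the 12 markers of colon epithelium was at 0 in every library of a group, and their summed level was 8254 to 16310 TPM over the 44 libraries (TPM is a transcript's share of all transcripts, corrected for gene length). Pancreatic acinar genes, which belong to another organ, summed to more than 1000 TPM in 8 of the grouped libraries: 1 wild-type, 3 knockout vehicle, 3 at 30 mg/kg and 1 anti-p40. Knockout vehicle libraries 2 and 3 stood apart. Of their group, library 2 was highest for 6 of the 9 genes and library 3 lowest for 7. Library 2 held 241.5 TPM of smooth muscle markers and 5272 TPM of neutrophil markers, and library 3 held 6345 and 259.1 TPM.

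In wild-type colon the 9 genes spanned a wide range of levels. Casp1 was the most abundant, with a median of 125 TPM, followed by Aim2 at 78.7 TPM and Pycard at 68.7 TPM. Casp8 stood at 40.8 TPM, Casp4 at 27.7 TPM and Zbp1 at 14.2 TPM. The necroptosis kinase Ripk3, at 9.44 TPM, and the executioner Mlkl, at 8.01 TPM, were lower. Nlrp3 was by far the lowest at 0.21 TPM, from 6 to 22 counts per library. The wild-type ranges of Aim2 and Pycard overlapped, as did those of Casp4 and Zbp1, of Zbp1 and Ripk3, and of Ripk3 and Mlkl, while Casp1 lay above all others and Nlrp3 below all others in every library. In knockout vehicle colon Zbp1 stood second, at a median of 164 TPM, while Nlrp3 and, next to it, Mlkl remained the lowest by median in each of the 6 groups.

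**Figure D1:**
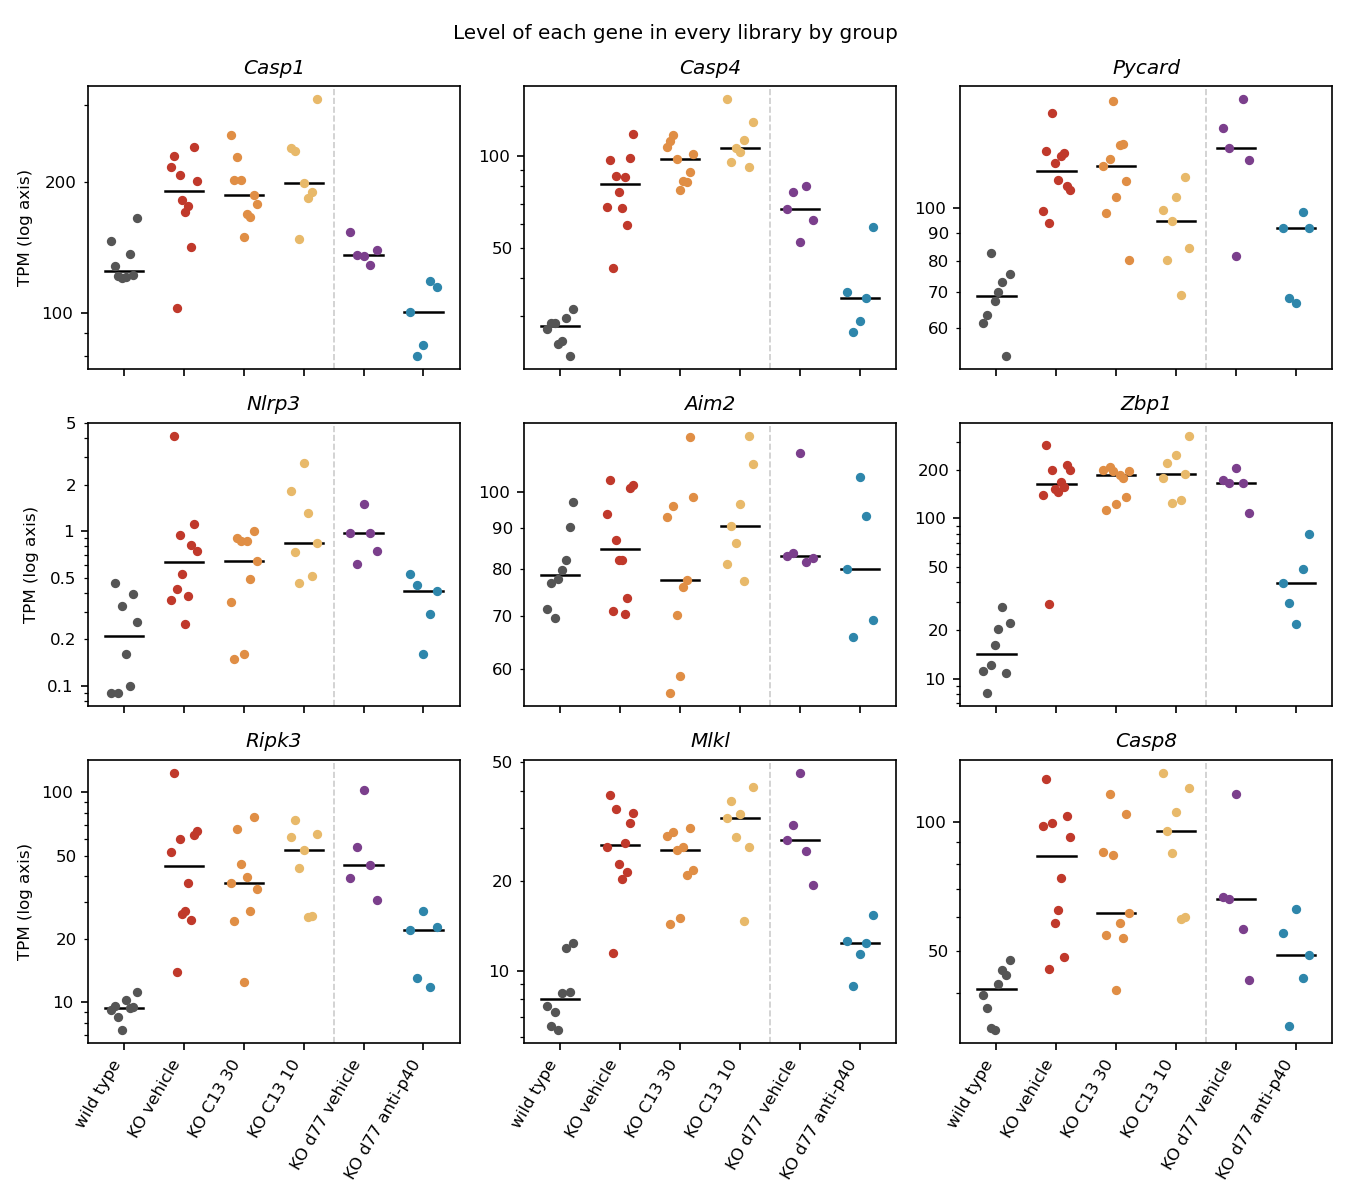
Level of each gene in TPM (log axis, its range set for each panel) in every library of the 6 groups. Points are libraries, black lines are group medians, KO is knockout, C13 with a number is compound 13 at that dose in mg/kg, and the dashed line parts the first cohort from day 77 (d77), which come from separate tables. Zbp1 lies between 8.15 and 28.13 TPM in wild type and between 29.34 and 327.57 TPM in the first-cohort knockout libraries, and Aim2 overlaps in all groups.

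Knockout vehicle colon was compared with wild-type colon to ask how these genes differ in the absence of interleukin 10. The wild-type mice were untreated, so the deletion and the vehicle cannot be told apart. Zbp1, Ripk3, Nlrp3, Mlkl, Casp4, Casp8, Pycard and Casp1 rose, and Aim2 did not pass the test. The 8 of 9 genes called higher at an adjusted p under 0.05 stand against 25.2% of the 16435 genes tested. Since the 9 genes were chosen with earlier results of these data known, that share is background and not a test. The median log2 fold change was 1.74 over the 9 genes and -0.01 over all genes tested. On log2(TPM + 1) with limma the median of all genes was -0.17 and the share of calls that were higher fell from 51.1% to 26.1%. The 8 genes that could be fitted there, all but Nlrp3, had positive fold changes, and 7 of them were called.

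Among the sensors, Zbp1, which binds Z-form nucleic acids, ranged from 8.15 to 28.13 TPM in wild type (median 14.2) and from 29.34 to 288.88 TPM in knockout vehicle (median 164). The groups did not overlap, although knockout vehicle library 3, at 29.34 TPM, lay just above the highest wild-type library. Zbp1 had a log2 fold change of 3.86 ± 0.38 (SE, adjusted p = 2.05e-06), the largest among the 9 genes.

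Nlrp3, a sensor of membrane damage and ion flux, ranged from 0.09 to 0.46 TPM in wild type (median 0.21) and from 0.25 to 4.14 TPM in knockout vehicle (median 0.635). The groups overlapped, and library 2 stood far above the other knockout libraries, the next of which held 1.11 TPM. In the fit, the log2 fold change came to 2.26 ± 0.55 (adjusted p = 0.00299), and 1.54 (adjusted p = 0.00283) without library 2. Counts were low, at 14 to 272 per knockout vehicle library.

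Aim2, the sensor of cytosolic double-stranded DNA, ranged from 69.47 to 97.16 TPM in wild type (median 78.7) and from 70.31 to 103.4 TPM in knockout vehicle (median 84.7). The groups overlapped over most of their range. On the log2 scale the fitted change was 0.21 ± 0.09 (adjusted p = 0.0571), with a 95% interval of 0.04 to 0.38. It passed without wild-type library 6 (adjusted p = 0.0453) or 8 (0.0367), or without knockout vehicle library 3 (0.0198), 6 (0.0386) or 7 (0.0461). It also passed without the libraries rich in acinar genes (log2 fold change 0.30, adjusted p = 0.0137). In the authors' deposited table Aim2 had a log2 fold change of 0.22 and an adjusted p of 0.0438. Aim2 overlaps Cadm3 on the opposite strand, and whether the counting used strand is not given in the sources used here.

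Pycard, the adaptor, ranged from 53.24 to 82.53 TPM in wild type (median 68.7) and from 94.04 to 150.48 TPM in knockout vehicle (median 117). All 10 knockout libraries lay above all 8 wild-type libraries, and the log2 fold change was 0.94 ± 0.12 (adjusted p = 2.04e-05). Its overlapping gene Gm45205, on the opposite strand, had a mean of 36.56 counts over the libraries.

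Of the caspases, Casp4 ranged from 22.14 to 31.54 TPM in wild type (median 27.7) and from 42.98 to 118.71 TPM in knockout vehicle (median 81.1). The groups did not overlap, and the log2 fold change was 1.74 ± 0.19 (adjusted p = 3.53e-06). Its neighbour Casp1 ranged from 120.25 to 165.72 TPM in wild type (median 125) and from 102.84 to 240.67 TPM in knockout vehicle (median 191). Here the groups overlapped: library 3 lay below every wild-type library and library 8, at 141.99 TPM, within their range. The log2 fold change of Casp1 was 0.70 ± 0.15 (adjusted p = 0.00123), the smallest rise among the 8 genes called, so that the neighbours rose by unequal fitted amounts, a difference that was not tested. Casp8 ranged from 32.78 to 47.84 TPM in wild type (median 40.8) and from 45.48 to 126.54 TPM in knockout vehicle (median 83.3). Only library 3 fell within the wild-type range, and the log2 fold change was 1.24 ± 0.20 (adjusted p = 0.000116).

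Both executioners of necroptosis rose. Ripk3 ranged from 7.39 to 11.22 TPM in wild type (median 9.44) and from 13.93 to 123.89 TPM in knockout vehicle (median 44.5). No knockout library fell within the wild-type range, and the spread in the knockout was wide, 8.89 times from the lowest to the highest library. This gave a log2 fold change of 2.62 ± 0.35 (adjusted p = 3.15e-05). Mlkl ranged from 6.33 to 12.39 TPM in wild type (median 8.01) and from 11.41 to 38.81 TPM in knockout vehicle (median 26.3). Again only library 3 reached into the wild-type range, and the log2 fold change was 1.93 ± 0.24 (adjusted p = 1.35e-05).

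Every knockout vehicle library lay above every wild-type library for 4 of the 9 genes (Zbp1, Ripk3, Casp4 and Pycard), against 1.95% of all genes tested. Without knockout vehicle libraries 2 and 3 together, all 9 genes were called higher, Aim2 at an adjusted p of 0.0339. In the authors' deposited table all 9 genes had an adjusted p under 0.05.

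Markers of other cell types moved in the same comparison. All 8 smooth muscle markers were called lower, with summed levels of 3819 to 8813 TPM in wild type and 241.5 to 6345 TPM in knockout vehicle. All 6 general leukocyte markers rose (88.29 to 316.4 against 189.8 to 755.9 TPM), as did 8 of 10 macrophage markers (441.6 to 682.0 against 631.3 to 1831 TPM). The 4 neutrophil markers tested, of 7, also rose (194.7 to 298.8 against 259.1 to 5272 TPM). So did 7 of 8 T cell markers and 6 of 7 of B and plasma cells, and 7 of 12 epithelial markers were higher and 1 lower. Of enteric neuron and glia markers 5 of 6 were lower (36.39 to 89.35 against 4.40 to 62.20 TPM), and of endothelial markers 3 of 5 (23.26 to 47.66 against 16.49 to 43.14 TPM). No marker on these lists was at 0 in every library of either group. The part of these shifts in the results on the 9 genes was not tested, and in bulk tissue fewer cells of a type and less RNA per cell cannot be told apart.

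Compound 13 was then set against vehicle within the knockout, with its 3 first-cohort groups in one fit. Both doses share the same 10 vehicle libraries. None of the 9 genes was called at 30 mg/kg, where 0% of the 16948 genes tested by edgeR were called. At an unadjusted p under 0.05, 1004 genes and 0 of the 9 stood out at that dose, and DESeq2 called 3 genes, none of the 9. None of the 9 was called at 10 mg/kg either, where 0.0118% of genes were called. There 1865 genes and 3 of the 9 (Casp4, Aim2 and Pycard) had an unadjusted p under 0.05, and DESeq2 called 72 genes and none of the 9. The median log2 fold change over the 9 genes was -0.02 at 30 mg/kg and 0.29 at 10 mg/kg, beside 0.00374 and -0.02 over all genes tested.

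At 30 mg/kg Zbp1 ranged from 112.55 to 209.27 TPM (median 186) and at 10 mg/kg from 124.22 to 327.57 TPM (median 189). Both overlapped with the vehicle range of 29.34 to 288.88 TPM. The fitted log2 fold change was -0.02 (95% interval -0.57 to 0.52, adjusted p = 0.999) at 30 mg/kg and 0.31 (-0.27 to 0.89, adjusted p = 0.703) at 10 mg/kg. These intervals still hold moderate changes in either direction.

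Nlrp3 ranged from 0.15 to 1.0 TPM at 30 mg/kg (median 0.64) and from 0.46 to 2.78 TPM at 10 mg/kg (median 0.84), against a vehicle median of 0.635. At 30 mg/kg its log2 fold change was -0.998 (approximate 95% interval -1.95 to -0.04, edgeR unadjusted p = 0.0509, adjusted p = 0.841). Without vehicle library 2, whose 272 counts were the most in the group, it was -0.29. At 10 mg/kg it was 0.21 (-0.79 to 1.203, adjusted p = 0.892), and 0.92 without that library. The medians of the treated groups thus lay at or above the vehicle median even where the fitted value at 30 mg/kg was negative.

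Casp4 stood at a median of 98.1 TPM at 30 mg/kg (77.52 to 118.0) and 106 TPM at 10 mg/kg (92.23 to 154.56), against 81.1 TPM in vehicle. The lowest treated library at either dose lay above the lowest vehicle library, and the ranges overlapped. Its log2 fold change was 0.37 at 30 mg/kg (approximate 95% interval 0.01 to 0.72, edgeR unadjusted p = 0.0511, adjusted p = 0.841). At 10 mg/kg it was 0.64 (0.27 to 1.01, adjusted p = 0.249), the lowest adjusted p of the 9 genes at that dose.

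Pycard had a median of 120 TPM at 30 mg/kg (80.04 to 158.18) and 94.9 TPM at 10 mg/kg (69.14 to 114.39), against 117 TPM in vehicle. It was the only one of the 9 with a negative fitted value at 10 mg/kg, -0.30 (95% interval -0.57 to -0.04, adjusted p = 0.409), and the value at 30 mg/kg was 0.02 (-0.22 to 0.27, adjusted p = 0.999). Aim2 had medians of 77.5 and 90.6 TPM at 30 and 10 mg/kg, with log2 fold changes of 0.05 (-0.14 to 0.24, adjusted p = 0.999) and 0.22 (0.02 to 0.43, adjusted p = 0.438). For Aim2 the libraries at 30 mg/kg reached both below and above those of vehicle, from 56.03 to 117.15 TPM.

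Casp1, Casp8, Ripk3 and Mlkl had log2 fold changes between -0.23 (Ripk3) and 0.14 (Casp1) at 30 mg/kg and between 0.14 (Ripk3) and 0.34 (Casp1) at 10 mg/kg. Their medians at 30 and 10 mg/kg were 187 and 199 TPM for Casp1 and 61.4 and 95.5 TPM for Casp8. For Ripk3 the medians were 36.9 and 53.0 TPM, and for Mlkl 25.3 and 32.5 TPM. All 4 overlapped with vehicle at both doses. The widest intervals among them were those of Ripk3, -0.95 to 0.49 at the higher dose and -0.62 to 0.91 at the lower. No marker of smooth muscle, epithelium, leukocytes, macrophages, neutrophils, T cells or B and plasma cells was called at either dose, while summed smooth muscle markers had medians of 1962 TPM in vehicle, 2880 TPM at 30 mg/kg and 873.4 TPM at 10 mg/kg. The authors' deposited tables listed none of the 9 genes under an adjusted p of 0.05 at either dose.

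The compound 13 groups were also set against wild type, in a fit of the 4 first-cohort groups. These comparisons share the wild-type libraries with the one on knockout vehicle. At 30 mg/kg 8 of the 9 genes were called higher, against 19.6% of the 17370 genes tested, with a median log2 fold change of 1.25 and -0.01 over all genes. The one not called was Nlrp3, at 1.25 ± 0.51 (adjusted p = 0.0540). Nlrp3 was called with DESeq2 (adjusted p = 0.0351) and with only these 2 groups in the fit (0.0174), and without wild-type library 4 (0.0468) or library 2, 4 or 5 at 30 mg/kg (0.0428, 0.0439 and 0.0419). At 10 mg/kg all 9 were called higher, against 24% of genes, with a median of 2.24 and -0.03 over all genes. On log2(TPM + 1) with limma the median of all genes was -0.25 and -0.26, and the share of calls that were higher was 15.5% in place of 58.6% at 30 mg/kg and 21.5% in place of 49.6% at 10 mg/kg.

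Zbp1 again stood highest, at 3.84 ± 0.34 (adjusted p = 9.1e-10) for 30 mg/kg and 4.17 ± 0.35 (adjusted p = 2.54e-10) for 10 mg/kg. Casp4 stood at 2.11 ± 0.18 (adjusted p = 4.26e-10) and 2.38 ± 0.19 (adjusted p = 9.16e-11), and at both doses no library overlapped with wild type. Aim2 was called at 30 mg/kg (0.26 ± 0.10, adjusted p = 0.0397) and at 10 mg/kg (0.43 ± 0.11, adjusted p = 0.00146). At 30 mg/kg that call was lost with DESeq2 (adjusted p = 0.0564), with its size factors in edgeR (0.0549), without the filter (0.0554), without the libraries rich in acinar genes (0.0714) and on TPM (log2 fold change 0.00, adjusted p = 0.982). It was lost as well when wild-type library 1, 2, 3, 4 or 7 or library 1, 3, 5, 8 or 9 at 30 mg/kg was left out, with adjusted p of 0.0506 to 0.0822. At 10 mg/kg it was lost on TPM (log2 fold change 0.21, adjusted p = 0.153).

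The day 77 cohort asked what an antibody to p40 does in the knockout colon. Zbp1, Ripk3, Nlrp3, Mlkl, Casp4, Pycard and Casp1 fell, and Casp8 and Aim2 did not pass the test. The 7 of 9 genes called lower stand against 8.32% of the 16470 genes tested. As in the knockout, that share is background only, because of how the 9 genes were chosen. The median log2 fold change was -1.01 over the 9 genes and 0.00880 over all genes tested.

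Zbp1 measured 174.03, 166.83, 205.05, 167.17 and 107.66 TPM in the 5 vehicle libraries and 39.55, 29.61, 21.88, 48.65 and 79.40 TPM with anti-p40. All anti-p40 libraries lay below all vehicle libraries. edgeR put the log2 fold change at -1.92 ± 0.37 (adjusted p = 0.00692).

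Nlrp3 measured 0.98, 0.61, 1.5, 0.98 and 0.74 TPM in vehicle and 0.53, 0.45, 0.16, 0.29 and 0.41 TPM with anti-p40. The groups did not overlap, although the highest treated library came close to the lowest vehicle library. Its log2 fold change stood at -1.49 ± 0.36 (adjusted p = 0.0182), on 14 to 41 counts per anti-p40 library.

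Aim2 measured 83.13, 83.77, 111.93, 81.65 and 82.51 TPM in vehicle and 80.11, 65.83, 104.27, 93.36 and 69.10 TPM with anti-p40. The groups overlapped, and vehicle library 3 stood above the other 4, which lay close together. In the fit, the log2 fold change came to -0.20 ± 0.14 (adjusted p = 0.374), with a 95% interval of -0.48 to 0.09.

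Pycard measured 140.82, 129.48, 81.54, 159.75 and 122.96 TPM in vehicle and 92.08, 68.06, 66.77, 98.47 and 91.91 TPM with anti-p40. Vehicle library 3, the highest of its group for 6 of the 9 genes, was here the lowest and lay within the anti-p40 range. On the log2 scale the fitted change was -0.73 ± 0.14 (adjusted p = 0.00749), and on TPM with limma the adjusted p was 0.0518.

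Casp1 measured 153.18, 135.77, 134.99, 128.86 and 139.97 TPM in vehicle and 100.74, 79.89, 84.65, 118.42 and 114.62 TPM with anti-p40. Vehicle libraries lay close together and above all treated libraries, with a log2 fold change of -0.58 ± 0.12 (adjusted p = 0.0111). Casp4 measured 67.17, 76.41, 52.27, 80.02 and 61.93 TPM in vehicle and 36.01, 26.59, 28.84, 34.26 and 58.65 TPM with anti-p40. Anti-p40 library 5 reached into the vehicle range, and the other 4 lay below it. This gave a log2 fold change of -1.01 ± 0.21 (adjusted p = 0.00955).

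Casp8 measured 67.14, 66.29, 116.79, 56.43 and 42.85 TPM in vehicle and 55.27, 33.44, 62.63, 43.38 and 48.98 TPM with anti-p40. The groups overlapped, with 4 of the 5 anti-p40 libraries above the lowest vehicle library. The fitted log2 fold change was -0.69 ± 0.28 (adjusted p = 0.115), with a 95% interval of -1.25 to -0.14, and -0.34 (adjusted p = 0.200) without vehicle library 3.

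Ripk3 measured 39.27, 54.97, 102.1, 45.30 and 30.86 TPM in vehicle and 22.11, 13.04, 27.13, 11.86 and 22.81 TPM with anti-p40. No library overlapped, and vehicle library 3 was again far above the rest. edgeR put the log2 fold change at -1.64 ± 0.38 (adjusted p = 0.0159), and without the filter on low counts the adjusted p was 0.0562. Mlkl measured 27.38, 30.75, 45.97, 25.13 and 19.41 TPM in vehicle and 12.59, 8.91, 11.37, 12.39 and 15.30 TPM with anti-p40. The groups were apart, and the log2 fold change was -1.40 ± 0.26 (adjusted p = 0.00609).

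Every anti-p40 library lay below every vehicle library for 5 of the 9 genes (Casp1, Zbp1, Ripk3, Mlkl and Nlrp3), against 4.19% of all genes tested. By the authors' deposited table, 7 of the 9 genes had an adjusted p under 0.05, and Casp8 (0.0655) and Aim2 (0.389) did not. Cell type markers moved here too: 6 of 8 smooth muscle markers were higher with anti-p40 (2994 to 7542 against 937.5 to 2829 TPM), and 7 of 10 macrophage markers lower (592.1 to 800.4 against 1009 to 1696 TPM). Of T cell markers 6 of 8 were lower (8.04 to 20.34 against 28.52 to 47.44 TPM), and of neutrophil markers 3 of the 4 tested (219.2 to 949.1 against 529.0 to 4388 TPM). Only 2 of 6 general leukocyte markers were lower (126.7 to 335.8 against 272.2 to 525.1 TPM). The same held for 2 of 7 B and plasma cell markers (437.7 to 816.0 against 1072 to 1676 TPM). Of epithelial markers 2 were higher and 1 lower, and 2 of 6 neuron and glia markers and 1 of 5 endothelial markers were higher. No marker on these lists was at 0 in every library of either group, and the part of these shifts in the fall of the 7 genes was not tested. Vehicle library 3 held the most neutrophil markers (4388 TPM) and the fewest smooth muscle markers (937.5 TPM) of its group.

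**Figure D2:**
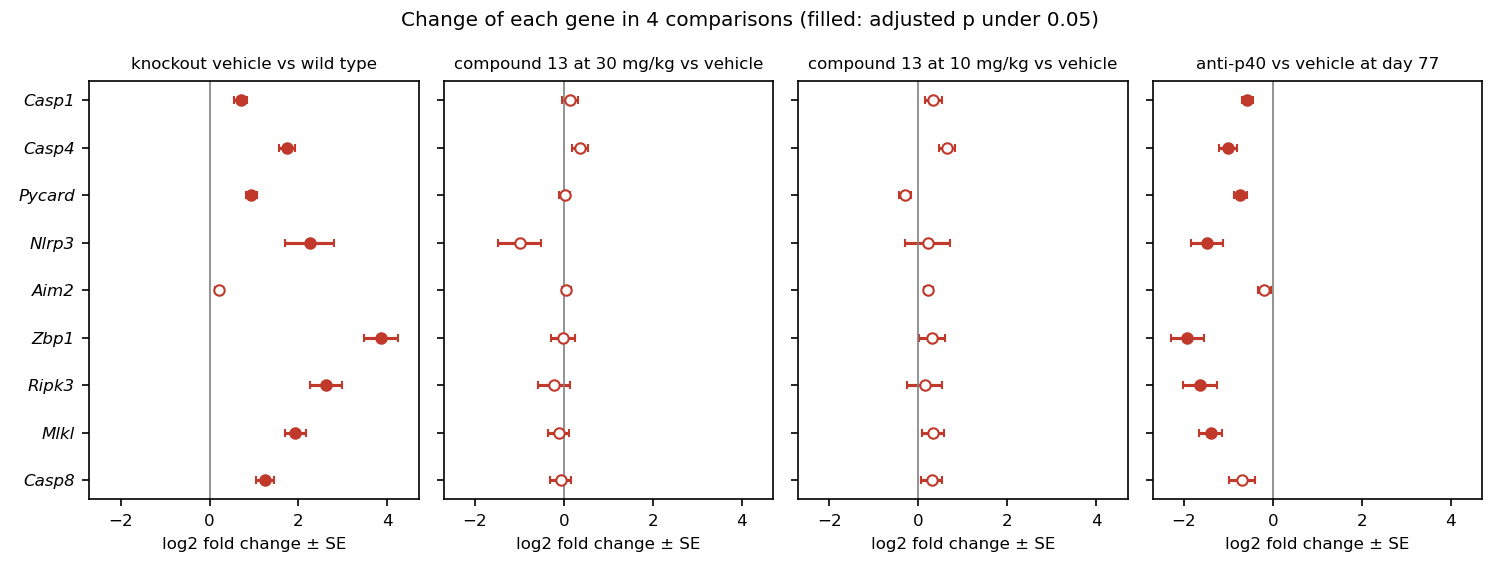
Fitted log2 fold change of each gene (points, bars are ± 1 SE) in 4 comparisons, with filled points at an adjusted p under 0.05 by edgeR. In the knockout against wild type 8 genes lie to the right of 0 and are filled, both compound 13 panels hold open points alone, and with anti-p40 7 genes are filled to the left of 0.

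The knockout comparison and the anti-p40 comparison share no library. Side by side, the 5 genes that rose most in the knockout (Zbp1, Ripk3, Nlrp3, Mlkl and Casp4) were also the 5 that fell most with anti-p40, in that order in both. The order depends on single libraries. Without knockout vehicle library 2 Nlrp3 stood at 1.54, while Mlkl stayed at 1.84 or more and Casp4 at 1.68 or more whichever library was left out. Without day 77 vehicle library 3 Ripk3 stood at -1.18, while Nlrp3 stayed at -1.26 or lower whichever library was left out. Levels set across the cohorts come from separate tables and were not tested. The anti-p40 median of Zbp1 was 2.78 times the wild-type median and that of Ripk3 2.34 times, while that of Mlkl was 1.55 times, that of Casp4 1.24 times and that of Casp1 0.804 times. Of the 5 anti-p40 libraries, 3 lay within the wild-type range for Mlkl and 4 for Nlrp3, and none did for Ripk3, where all were above, or for Casp1, where all were below.

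Whether anti-p40 and compound 13 at 30 mg/kg differed in their effect was tested directly, each against the vehicle of its own cohort. Each treatment was given in a single cohort, so a difference between the treatments and a response that differs between cohorts cannot be told apart. For 3 of the 9 genes the anti-p40 effect was called lower, against 1.2% of the 18021 genes tested. Casp4 differed by -1.37 ± 0.28 on the log2 scale (adjusted p = 0.00466), Zbp1 by -1.89 ± 0.49 (adjusted p = 0.0340) and Pycard by -0.75 ± 0.20 (adjusted p = 0.0391). Mlkl (-1.28 ± 0.38, adjusted p = 0.0706), Casp1 (-0.72 ± 0.26, adjusted p = 0.141), Ripk3 (-1.41 ± 0.55, adjusted p = 0.188) and Casp8 (-0.61 ± 0.36, adjusted p = 0.426) did not pass. Nor did Nlrp3 (-0.49 ± 0.72, adjusted p = 0.787) or Aim2 (-0.24 ± 0.17, adjusted p = 0.509). Mlkl was called with DESeq2 (adjusted p = 0.0272). In edgeR it was called without knockout vehicle library 2 (0.0353), library 5 at 30 mg/kg (0.0433) or day 77 vehicle library 5 (0.0478). The value of Nlrp3 was -1.199 without knockout vehicle library 2 and -0.17 without library 8 at 30 mg/kg, neither of them called. The median difference was -0.75 over the 9 genes and 0.04 over all genes, the latter 0.18 on TPM with limma, where the share of calls that were higher was 60.1% in place of 26.9%. All 9 fitted values stayed negative there, that of Nlrp3 at -0.32. Casp4 was called under every alternative run, with adjusted p of 0.000368 to 0.0216. The calls of Zbp1 and Pycard lay close to the threshold, and leaving out any of several single libraries ended them while the differences stayed of similar size. Zbp1 was lost (adjusted p 0.0502 to 0.0975, differences of -1.92 to -1.71) without library 3 at 30 mg/kg, day 77 vehicle library 2 or 3, or anti-p40 library 1, 2, 3 or 4, and without the filter (0.0619). Pycard was lost (adjusted p 0.0508 to 0.112, differences of -0.78 to -0.66) without knockout vehicle library 1, 6 or 8, library 1, 3, 4 or 7 at 30 mg/kg, day 77 vehicle library 1, 2, 4 or 5, or anti-p40 library 1, 2 or 3, and on TPM (0.111).

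Within groups, the 9 genes varied together between libraries. Correlations were taken over the 26 knockout libraries of the first cohort on log2(CPM + 1), with each group's mean removed. All 36 pairs had a positive Pearson r, with a median of 0.69 and a range of 0.19 to 0.94, and 34 had a permutation p adjusted over the 36 pairs under 0.05 (31 by Spearman's rho). Over all pairs of 14838 protein-coding genes in the same libraries the median r was 0.00121, 50.1% were positive, and 12.8% reached 0.404, the smallest r among the 34 pairs. The libraries share their tissue composition and scaling, so these values describe libraries and not cells. On log2(TPM + 1), chosen after the data were seen, the median r was 0.59.

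Casp8, Ripk3 and Mlkl, which act at the branch between apoptosis and necroptosis, formed the tightest group. Casp8 and Ripk3 had r = 0.943 and rho = 0.952 (permutation p = 1e-05 for each, the smallest that the 100000 resamples can give, adjusted 4e-05 and 6e-05), and r = 0.925 without the 2 libraries farthest from the median. Ripk3 and Mlkl had r = 0.901 and rho = 0.909, and Casp8 and Mlkl r = 0.883 and rho = 0.887, with the same permutation p. In the 10 day 77 libraries these 3 pairs had r = 0.934, 0.840 and 0.909. The neighbours Casp1 and Casp4, shown with their upstream sequences earlier, had r = 0.866 and rho = 0.848 (permutation p = 1e-05), and r = 0.596 at day 77.

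Pycard held the lowest r of the 36 pairs, those with Aim2, Nlrp3 and Ripk3. With the other genes its r lay between 0.454 (Casp8) and 0.645 (Zbp1). Its r with Aim2 was 0.190 (rho 0.0393, permutation p = 0.353 and 0.850) and with Nlrp3 0.338 (rho 0.390, permutation p = 0.0925 and 0.0511). With Ripk3 it was 0.404 (rho 0.273, permutation p = 0.0415 and 0.178, adjusted 0.0440 and 0.183), and it fell to 0.183 without the 2 farthest libraries, so that it rests on them. At day 77 the r of Pycard with Aim2 was -0.609 and with Ripk3 -0.488, over 10 libraries. There it was also negative with Casp8, Mlkl and Nlrp3, and positive with Casp4 (0.665), Zbp1 (0.420) and Casp1 (0.334). Over all 36 pairs the day 77 median was 0.35, with 29 pairs positive.

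**Figure D3:**
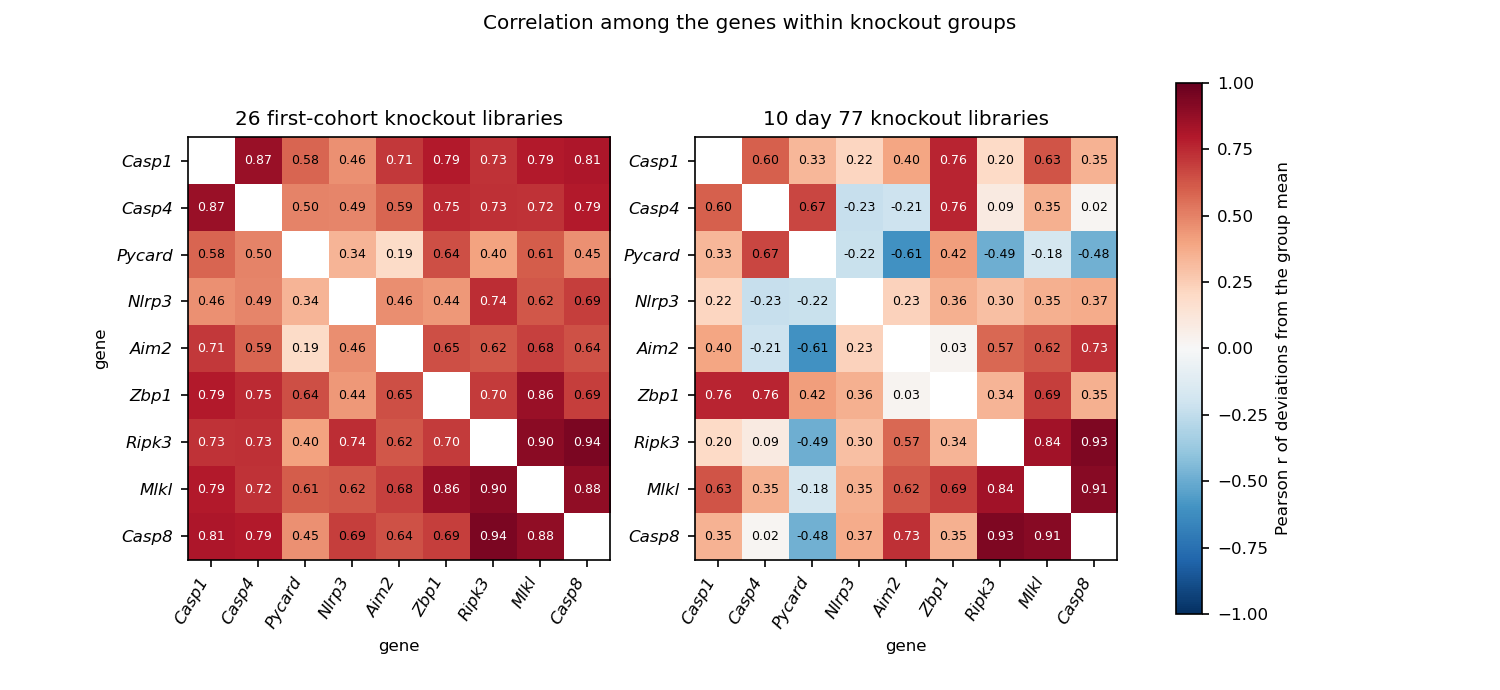
Pearson r between each pair of the 9 genes (rows and columns) over 26 first-cohort and 10 day 77 knockout libraries, on log2(CPM + 1) after the group mean was removed, with colour and printed number both giving r. The block of Ripk3, Mlkl and Casp8 lies at 0.88 to 0.94 on the left and 0.84 to 0.93 on the right, and Pycard has both negative and positive values on the right.

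For each member the 3 genes most like it over the same 26 libraries were taken from 14837 genes by Pearson r, as a description. Ripk3 was most like Trim15 (r = 0.982), Ddah1 (0.966) and Tpm3-rs7 (0.960), and at day 77 these had r of 0.882, 0.862 and 0.935. Casp8 was most like Tmc5 (0.970), Actn4 (0.968) and Actr2 (0.966), the last 2 being parts of the actin machinery. Among the 3 for Zbp1 were Ifi47, an interferon-inducible GTPase (0.937), and Oas3, which senses double-stranded RNA (0.931). Among those for Mlkl were Rmdn3 (0.953) and Zc3h12a, an RNase that limits cytokine messages (0.941). For Tmc5, Actn4 and Actr2 the day 77 r with Casp8 was 0.445, 0.891 and 0.971. It was 0.88 for Ifi47 and 0.43 for Oas3 with Zbp1, and 0.91 for Rmdn3 and 0.68 for Zc3h12a with Mlkl.

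Nlrp3 was most like genes of myeloid cells: Clec4e, a receptor of macrophages (0.917), Acod1, which makes itaconate (0.915), and Cxcl2, a chemokine for neutrophils (0.879). Spearman's rho was lower, at 0.817, 0.826 and 0.751. Knockout vehicle library 2, whose Nlrp3 level stood far above its group, was included. In the day 77 libraries r was 0.83 for Acod1 and 0.60 for Cxcl2, and Clec4e had no value. Aim2 was most like Epb41l4b (0.871), Baiap2l1 (0.863) and Parm1 (0.859), none of which was called in the knockout (adjusted p 0.221, 0.0932 and 0.101). Casp4 stood with Lpin2 (0.917), Fas (0.897) and Nipsnap3b (0.895), and Casp1 with Cept1 (0.934), Tmco3 (0.933) and Parp12 (0.931). The day 77 r was 0.002, 0.52 and -0.06 for those of Casp4 and 0.72, 0.53 and 0.55 for those of Casp1. For those of Aim2 it was 0.86, 0.91 and 0.81. Pycard was most like Atp5g3 (0.824), Rpl22l1 (0.806) and Cox5a (0.776), of which the first and last encode parts of the mitochondrial respiratory chain and ATP synthase. At day 77 these 3 had r of 0.01, -0.02 and -0.53 with Pycard.

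Other genes of these pathways were counted by list, and the lists too were chosen with earlier results of these data known. Of 21 further inflammasome sensors, partners and substrates 19 were tested, and in the knockout 13 rose and 2 fell, with a median log2 fold change of 0.39 against -0.01 over all genes. Of all genes tested 25.2% rose and 24.1% fell in that comparison, and 8.35% rose and 8.32% fell with anti-p40, which is the background for the counts of each list that follow. Il1b, the cytokine cleaved by caspase-1, rose by 3.41 ± 0.66 (adjusted p = 0.000538), from 2.40 ± 0.88 to 21.7 ± 36.2 TPM (mean ± SD, n = 8 and 10, edgeR). Mefv, which encodes the sensor pyrin, rose by 1.46 ± 0.32 (adjusted p = 0.00135). The other substrate, Il18, fell by 0.83 ± 0.20 (adjusted p = 0.00249), from a mean of 268 to 132 TPM, and Txnip, a thioredoxin-binding protein that can bind NLRP3, fell by 1.14 ± 0.15 (adjusted p = 2.2e-05). With anti-p40 1 rose and 6 fell (median -0.40, against 0.00880 over all genes): Txnip rose by 1.54 ± 0.17 (adjusted p = 0.000422), Mefv fell by 1.13 ± 0.29 (adjusted p = 0.0242) and Gsdmd, the pore-forming substrate of caspase-1 and caspase-4, fell by 0.99 ± 0.15 (adjusted p = 0.00228).

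Aim2 belongs to the PYHIN family, of which 11 other symbols were listed, 9 matched and 8 were tested. In the knockout 6 rose and none fell (median 1.07), with Ifi211 at 2.87 ± 0.57 (adjusted p = 0.000677) and Ifi205 at 2.05 ± 0.46 (adjusted p = 0.00153), beside 0.21 for Aim2. Ifi211 and Ifi205 were low, with means of 0.30 and 1.31 TPM in wild type and 1.9 and 4.55 TPM in knockout vehicle. Aim2 had means of 80.6 and 86.7 TPM in these 2 groups. With anti-p40 2 fell, Ifi204 by 1.21 ± 0.34 (adjusted p = 0.0338) and Mndal by 0.66 ± 0.19 (adjusted p = 0.0324). These family members are near-identical in sequence in places, so the assignment of reads among them is uncertain.

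Of 28 further genes of necroptosis and death receptor signalling 27 were tested. In the knockout 16 rose and none fell (median 0.33), led by the ligands Tnf (3.78 ± 0.50, adjusted p = 2.48e-05) and Tnfsf10, which encodes TRAIL (2.93 ± 0.31, adjusted p = 3.37e-06). Ripk1, the kinase partner of Ripk3, stood at 0.08 ± 0.10 (adjusted p = 0.524) and is named after its value was seen. With anti-p40 9 fell and none rose (median -0.14), with Tnf at -3.06 ± 0.45 (adjusted p = 0.00184) and Tnfsf10 at -2.19 ± 0.30 (adjusted p = 0.00137).

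Of 18 other caspases and genes of the mitochondrial pathway, all tested, 7 rose and 4 fell in the knockout (median 0.13), the latter close to the share over all genes. Bid, which caspase-8 cleaves, rose by 1.13 ± 0.18 (adjusted p = 0.000104), while Bbc3 fell by 0.76 ± 0.18 (adjusted p = 0.00249) and Bcl2l11 by 0.56 ± 0.14 (adjusted p = 0.00362), both of them promoters of apoptosis. With anti-p40 1 rose (Casp2, 0.42 ± 0.12, adjusted p = 0.0367) and 6 fell (median -0.30), among them Bak1 by 0.86 ± 0.17 (adjusted p = 0.00704). At neither dose of compound 13 was any gene of these 4 lists called against vehicle.

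Against wild type, the same lists gave at 30 mg/kg 10 higher and 1 lower among 19 inflammasome genes, 2 and 0 among 8 PYHIN genes, 17 and 0 among 28 of death receptor signalling, and 6 and 1 among 18 of the last list, where 19.6% of all genes were higher and 13.8% lower. The PYHIN count there is near that share. At 10 mg/kg these counts were 14 and 2, 7 and 0, 22 and 0, and 8 and 1, where 24% of all genes were higher and 24.3% lower. In the test of anti-p40 against 30 mg/kg, where 1.2% of all genes were lower and 0.444% higher, Gsdmd (-1.05 ± 0.24, adjusted p = 0.0116), Naip5, a sensor of flagellin (-0.58 ± 0.16, adjusted p = 0.0449), Tnf (-2.59 ± 0.69, adjusted p = 0.0382) and Tnfsf10 (-2.21 ± 0.48, adjusted p = 0.00845) were called lower. Bak1 (-0.82 ± 0.22, adjusted p = 0.0430) was lower as well, and Txnip was higher (1.04 ± 0.29, adjusted p = 0.0467).

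**Figure D4:**
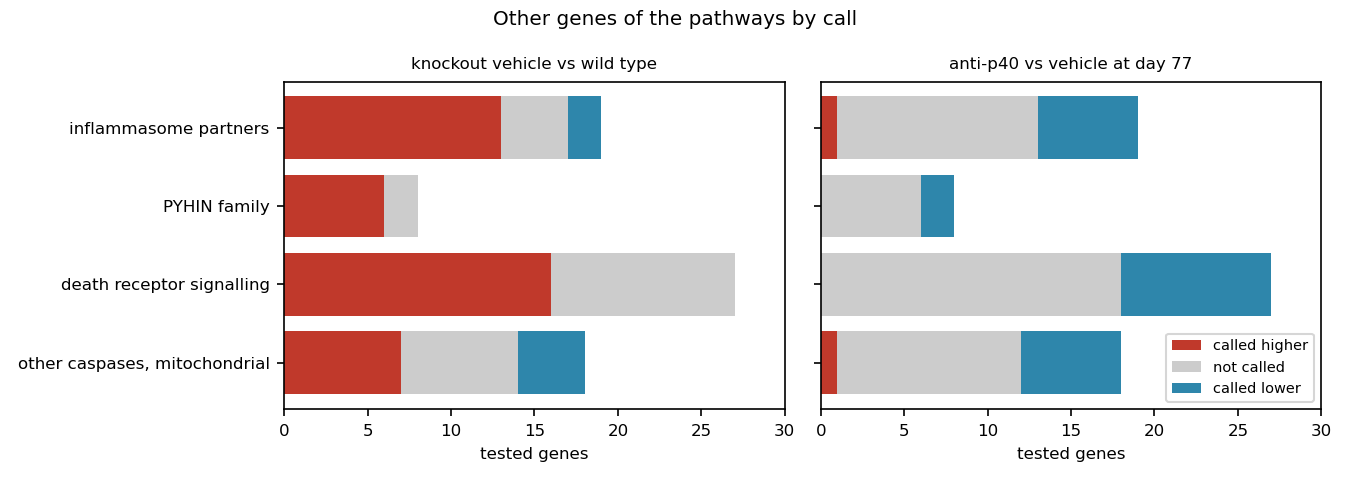
Number of tested genes (horizontal axis) of 4 lists of related genes called higher (red), not called (grey) or called lower (blue) by edgeR at an adjusted p under 0.05. In the knockout the list of death receptor signalling holds 16 genes called higher and none lower, and with anti-p40 9 called lower and none higher.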

How the data were processed

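Poly(A)-selected RNA of mouse distal colon was sequenced in 45 libraries. Build mm10 and the tools RSEM 1.3.3, STAR 2.7.8a, cutadapt 3.7 and DESeq2 1.30.1 are named in the submitters' processing notes. The authors deposited estimated counts per gene, not normalized, of which 17.1% (first cohort) and 20.4% (day 77) of values above 0 were not whole. The authors deposited TPM (RSEM's transcript share, corrected for gene length) for the same genes. Per the file headers, the authors' deposited comparison tables give log2 fold changes with p-values and adjusted p-values; their design is not given in the sources used here.

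Counts were rounded and tested with edgeR 4.0.16 (quasi-likelihood, robust, TMM scaling, filterByExpr) in R 4.3.3, and p-values adjusted over all genes tested by Benjamini-Hochberg; the threshold for a call was 0.05. Adjusted p-values are from edgeR unless another tool is named. Vehicle against wild type and anti-p40 against vehicle used their own groups, compound 13 the 3 knockout groups, compound 13 against wild type 4 groups, and the difference of effects all 6. TPM gave levels only. Alternatives were DESeq2 1.42.0, its size factors in edgeR, no filter, limma 3.58.1 on log2(TPM + 1), other groups in the fit and 1 library left out. Those added after seeing the data left out knockout vehicle libraries 2 and 3, or every library above 1000 TPM of acinar genes, or used TPM for the correlations. The fits were also run on simulated counts in which a small share of genes was changed, all upward. That setting does not test the scaling where many genes change, as in the knockout comparison, and its outcome is not given here. Symbols of 50376 of 50600 identifiers came from GENCODE M21. All 9 genes are named in every comparison, and from each list the 2 called genes with the largest rise and the 2 with the largest fall; a few genes that these rules name are not reported here. The 9 genes and the lists were chosen with earlier results of these data known. The library whose title and treatment labels disagree on the dose entered no comparison.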

Additional observations from a re-analysis of the deposited data

Results flagged for a closer look

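Of 54 sets of 5 to 10 libraries (9 genes in 6 groups) checked for a single extreme library by Dixon's criterion, 3 had one, and chance gives about 1 in 20. In knockout vehicle, library 2 stood above the other 9 for Ripk3 (123.89 TPM) and for Nlrp3 (4.14 TPM). In day 77 vehicle, library 3 stood above the other 4 for Aim2 (111.93 TPM).

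The effect of anti-p40 at day 77 differed from that of compound 13 at 30 mg/kg for Casp4 (-1.37 on the log2 scale, adjusted p = 0.00466), Zbp1 (-1.89, adjusted p = 0.0340) and Pycard (-0.75, adjusted p = 0.0391), each tested in the fit of all 6 groups by edgeR, and only the call of Casp4 held under every alternative run. Treatment and cohort cannot be told apart here.

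The library with conflicting dose labels, which belongs to no group, was above the highest wild-type library for 8 of the 9 genes. It held 201.9 TPM of Casp1 (wild-type maximum 165.72), 86.56 of Casp4 (31.54), 60.9 of Casp8 (47.84) and 208.73 of Zbp1 (28.13). Ripk3 stood at 27.72 TPM (11.22), Mlkl at 25.35 (12.39), Nlrp3 at 0.48 (0.46) and Pycard at 116.19 (82.53).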

How the results depend on the processing

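The counts of the 9 genes called stayed within 1.5 times of the reported ones in all alternatives of 6 of the 7 comparisons. In the difference between the anti-p40 and 30 mg/kg effects, 3 of the 9 genes were called, and 1 to 4 with 1 library left out, the 1 without library 3 at 30 mg/kg, day 77 vehicle library 2 or anti-p40 library 1, 2 or 3. No called fold change of the 9 genes changed sign in any alternative. Values of genes not called at 30 mg/kg against vehicle changed sign. On TPM with limma they were 0.146 for Zbp1, -0.0930 for Aim2 and -0.00862 for Pycard. Pycard stood at -0.0418 without knockout vehicle libraries 2 and 3. Without the libraries rich in acinar genes, values were -0.00954 for Casp1, -0.0267 for Aim2 and -0.0676 for Pycard at 30 mg/kg, and -0.0945 for Ripk3 and -0.124 for Nlrp3 at 10 mg/kg. With 1 library left out at 30 mg/kg, values ranged from -0.183 to 0.0243 for Casp8, -0.162 to 0.101 for Zbp1, -0.399 to 0.0478 for Ripk3 and -0.0493 to 0.0884 for Pycard. At 10 mg/kg they ranged from -0.0580 to 0.420 for Ripk3 and -0.0963 to 0.919 for Nlrp3. The cause was not tested. DESeq2 called 638 genes in the difference of effects in place of 297, and 72 in place of 2 at 10 mg/kg and 3 in place of 0 at 30 mg/kg. Limma on TPM called 20 genes at 10 mg/kg and, outside the difference of effects, could not be fitted for Nlrp3, which reached the TPM minimum of 1 in too few libraries. Without the libraries rich in acinar genes, 136 genes were called in the difference of effects and 0 at 10 mg/kg. With 1 library left out, all-gene counts were 167 (without day 77 vehicle library 3) to 577 (without knockout vehicle library 2) in the difference of effects, 1 to 18 (without library 6 at 10 mg/kg) at 10 mg/kg, and as low as 1637 in place of 2745 for anti-p40 (without its library 2). No paired analysis was possible because the labels give no replicate numbers. Low counts limit Nlrp3, at 6 to 22 counts per wild-type library.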
